A study of Mus musculus with 2 samples.

Results

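The 8 genes described here lie on both sides of *Sox9* on mouse chromosome 11: *Map2k6*, *Kcnj16*, *Kcnj2* and *BC006965* upstream, and *Slc39a11*, *Sstr2*, *Cog1* and *Fam104a* downstream. They were chosen by name for their position, with earlier results of these data known. All 8 were found among the 24421 gene rows of the RNA-Seq count table. Their levels were compared between 1 library of primary chondrocytes, freed with collagenase from the rib cartilage of newborn mice and kept for no more than 2 passages, and 1 library from primary dermal fibroblasts of newborn back skin, likewise digested with collagenase. The labels give no strain, sex, treatment or allele for either library. The counts summed to 18788599 in chondrocytes and 17563724 in dermal fibroblasts, and neither cell type had a replicate, so differences between the libraries were not tested.

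*Sox9* encodes a transcription factor required for cartilage formation, and it lies in a large region with few protein-coding genes that holds many of its distant enhancers. The adjoining regulatory domain contains the potassium channel genes *Kcnj16* and *Kcnj2*, and a boundary between the domains normally keeps their enhancers apart. Rearrangements that join the domains can place *Kcnj2* under the control of *Sox9* enhancers and are known from limb malformations.

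On GRCm38, the region from the start of *Map2k6* to the end of *Fam104a* covered 3.29 Mb. *Sox9* itself (chr11:112782210-112787757, plus strand) had 5045 counts in chondrocytes against 342 in dermal fibroblasts. After scaling of the libraries with TMM factors, which limit the weight of a few very abundant genes, it was 15.2-fold higher in chondrocytes (95% counting interval 13.6 to 17.0). The folds of 6 flanking genes were smaller than that of *Sox9*, while *BC006965* had a lower bound only and *Kcnj16* had no fold. A gene was compared where it had over 3 counts in at least 1 library, which left 7 of the 8 genes, and for the folds a count under 3 was raised to 3. Of these 7, 4 were over 2-fold higher in chondrocytes (*Map2k6*, *BC006965*, *Slc39a11* and *Sstr2*), against 12.1% of the 15616 genes compared in the whole table. None of the 7 was over 2-fold higher in dermal fibroblasts, where the share over the whole table was 15.8%, and *Kcnj2*, *Cog1* and *Fam104a* lay within 2-fold. For 2 of the 7, *BC006965* and *Sstr2*, the counting interval was above 2-fold over its whole length, against 6.67% of all genes compared, and for 0 of the 7 it lay beyond 2-fold toward dermal fibroblasts, against 9.90%. With the other scalings, tried for these intervals after the data were seen, total counts left 1 such gene, *BC006965*, and the upper quartile, the totals without the 10 most abundant genes and *Actb* added *Slc39a11*. The median log2 fold of the 7 genes was 1.07, and that of all genes compared was 0.0036. With a floor of 10 counts, also tried for the median after the data were seen, *BC006965* lost its difference and the median of the 7 was 0.04. Intervals and floors cover counting error only, as 1 library for each cell type gives no spread between samples. Reads amplified by PCR without molecular identifiers are not independent molecules, so the intervals may be too narrow even for counting error.

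**Figure D1:**
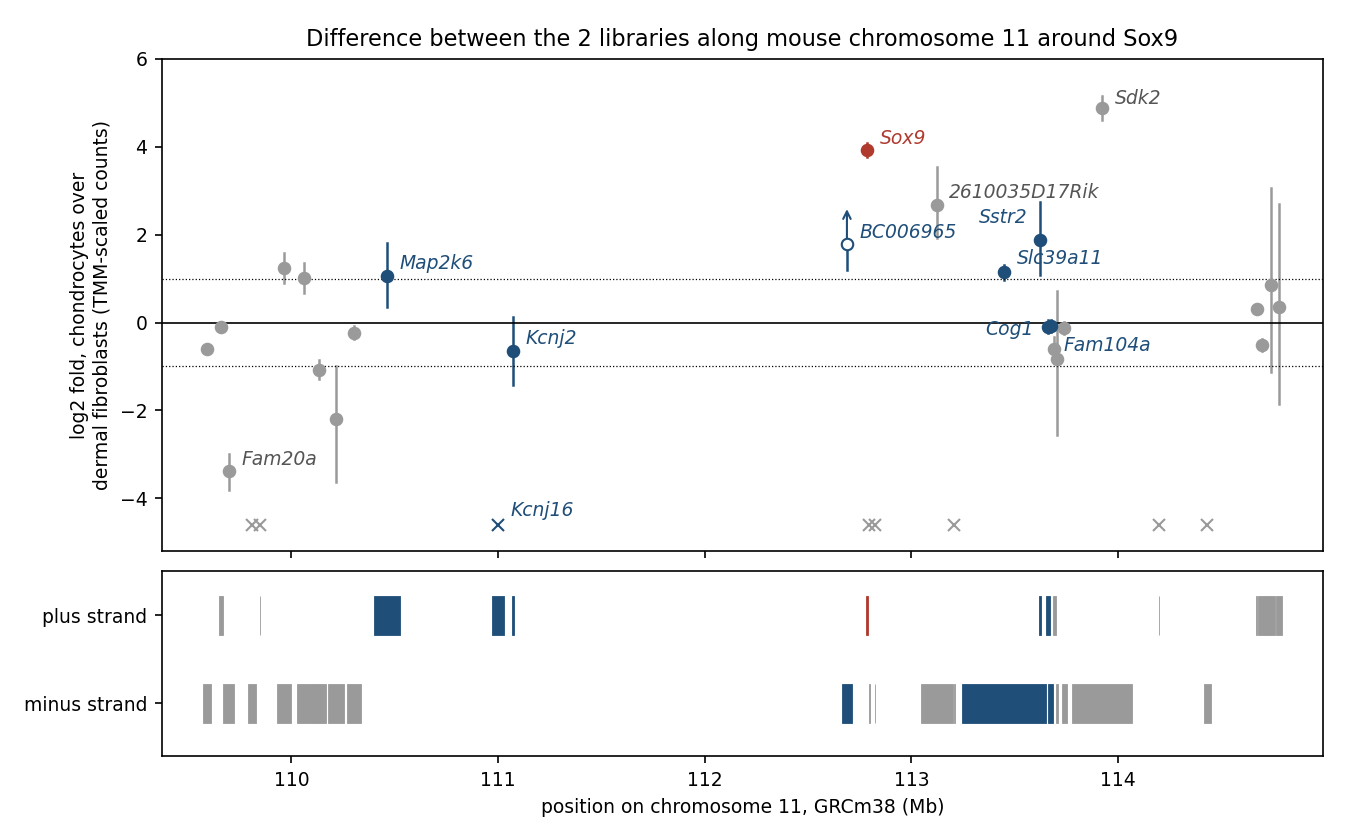
Log2 fold of chondrocytes over dermal fibroblasts (1 library each, TMM-scaled counts) against the position on chromosome 11 of GRCm38 in Mb, with the genes' spans on each strand drawn to scale underneath. Blue marks the 8 flanking genes, red *Sox9* and grey other genes of the neighborhood; bars are 95% counting intervals, the open point is the lower bound for *BC006965*, crosses are genes not compared, and dotted lines mark 2-fold. *Sox9* (15.2-fold) stands above the points of all 7 flanking genes compared, of which *BC006965* is a lower bound, and *Sdk2* (29.3-fold) stands above *Sox9*.

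The level per length, in TMM-scaled counts per kilobase of exon per 1000000 counts, separated the 8 genes into 3 abundant ones and 5 sparse ones. In chondrocytes the order was *Fam104a* (15.7), *Slc39a11* (15.1), *Cog1* (8.12), *Sstr2* (1.63), *Map2k6* (0.826), *Kcnj2* (0.256), *BC006965* (0.0967) and *Kcnj16* (0). Ratios of neighbors in this order were given counting intervals after the data were seen. For *Fam104a* over *Slc39a11* the ratio was 1.04 (interval 0.945 to 1.14), which left their order open. For *Kcnj2* over *BC006965* it was 2.65 (interval 1.23 to 6.18), and the intervals of the 4 other neighboring pairs did not include 1 either. The level of *BC006965* was computed with 5.77 kb of exon from GENCODE vM1. Its extent differs in RefSeq, so its level and this ratio depend on the gene model. *Cog1* and *Fam104a* share 22.3% and 38.6% of their exon lengths with each other on opposite strands. Their levels and ratios thus depend on how reads of these bases were counted. In dermal fibroblasts the order was *Fam104a* (16.5), *Cog1* (8.65), *Slc39a11* (6.84), *Sstr2* (0.442), *Kcnj2* (0.399) and *Map2k6* (0.394), with *BC006965* and *Kcnj16* at 0. The order of the last 3 was open, as the ratios of *Sstr2* to *Kcnj2* (1.11, interval 0.589 to 2.0) and of *Kcnj2* to *Map2k6* (1.01, interval 0.599 to 1.74) had intervals that included 1. *Cog1* stood above *Slc39a11* in this library, by 1.27 times (interval 1.12 to 1.43). *Slc39a11*, *Cog1* and *Fam104a* together held 94.3% of the counts of the 8 genes in chondrocytes and 96.2% in dermal fibroblasts.

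*Sox9* changed its place among its neighbors. On the per-length scale its level was 68.1 in chondrocytes (interval 66.2 to 70.0) and 4.49 in dermal fibroblasts (interval 4.03 to 4.99). In chondrocytes this was 4.34 times the level of *Fam104a*, 4.51 times that of *Slc39a11* and 8.38 times that of *Cog1*. In dermal fibroblasts it was 0.272, 0.657 and 0.519 times those levels. The ratios to *Fam104a* and *Cog1* depend on how reads of their shared exon bases were counted. *Sox9* was therefore above all 8 flanking genes in the chondrocyte library and below the 3 abundant ones in the dermal fibroblast library.

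**Figure D2:**
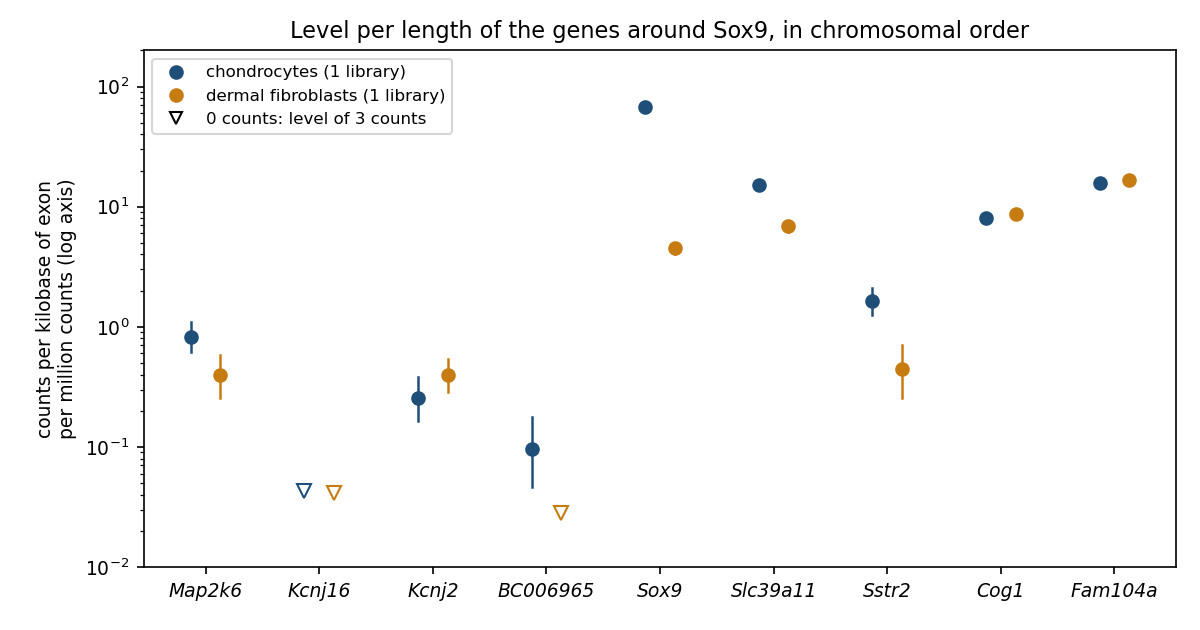
Level per length (TMM-scaled counts per kilobase of exon per 1000000 counts, log axis) of the 8 flanking genes and *Sox9* in chromosomal order, in 1 chondrocyte library (blue) and 1 dermal fibroblast library (orange). Bars are 95% Poisson counting intervals, some smaller than the points, and open triangles mark genes at 0 at the level that 3 counts would give. *Slc39a11*, *Cog1* and *Fam104a* lie between 6.84 and 16.5 in both libraries, while the other 5 genes lie at 1.63 or less.

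Markers were compared to check the cell types named for the libraries. All 6 chondrocyte markers were over 2-fold higher in chondrocytes, where they summed to 97088 CPM (TMM-scaled counts per 1000000 counts) against 2.28 in dermal fibroblasts. *Col2a1*, their most abundant gene, had 1447098 counts and 0, and *Matn1* was also at 0 in dermal fibroblasts. All 6 dermal fibroblast markers were over 2-fold higher in dermal fibroblasts (47722 CPM against 6015), led by *Col1a1* with 322379 counts against 39143. Markers of other cells were found as well, and their sums are given in CPM for chondrocytes and then for dermal fibroblasts. Skeletal muscle markers summed to 1850 and 1304, with 4 of 8 over 2-fold higher in chondrocytes, and their most abundant genes were *Myh3* in chondrocytes (7784 counts) and *Actc1* in dermal fibroblasts (7970 counts). Keratinocyte markers summed to 8.93 and 249, with 4 of 6 over 2-fold higher in dermal fibroblasts and *Krt14* leading there with 1939 counts. Macrophage markers summed to 108 and 173, led by *Lyz2* in both libraries, with 1 of 6 over 2-fold higher in dermal fibroblasts. Endothelial markers summed to 14.1 and 42.4, with *Kdr* leading in dermal fibroblasts and 5 of 6 over 2-fold higher there. Schwann cell markers summed to 168 and 74.8. Their most abundant gene in chondrocytes was *S100b* (2657 counts against 87), which cartilage is also known to express, while 4 of 6 were over 2-fold higher in dermal fibroblasts. Of 4 neuronal markers compared, 2 were over 2-fold higher in each direction, the list summed to 6.08 and 19.9 with *Tubb3* leading, and with a floor of 10 counts 0 and 1 were left. *Rbfox3* was at 0 in both libraries and *Snap25* was at 0 in dermal fibroblasts. Melanocyte markers summed to 9.76 and 61.9, led by *Mitf*, with 5 of 6 over 2-fold higher in dermal fibroblasts and *Dct* and *Tyrp1* at 0 in chondrocytes. The part of these cells in the levels of the flanking genes was not tested. In such bulk libraries, fewer cells of a type and less RNA per cell cannot be told apart.

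*Map2k6* encodes a kinase that activates the p38 MAP kinases in response to stress and cytokines. It was the outermost gene on the upstream side (chr11:110399102-110525522, plus strand), 2257 kb from *Sox9*. It had 51 counts in chondrocytes against 25 in dermal fibroblasts, or 2.85 and 1.36 CPM. The chondrocyte library was thus the higher one, by 2.10-fold with an interval from 1.27 to 3.53, and scaling by total counts gave 1.91-fold, which is under the 2-fold threshold. *Map2k3*, which encodes the closely related kinase of the same step, had 1906 counts in chondrocytes against 1425 in dermal fibroblasts. On the per-length scale *Map2k3* stood at 32.1 and 23.4, far above the 0.826 and 0.394 of *Map2k6* in the same libraries.

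All 14 genes of the p38 cascade were compared, *Map2k6* included, and their log2 folds had a median of 0.04, which became -0.10 with total counts. *Tab2* (3794 and 2700 counts), *Mapkapk2* (2961 and 2353 counts) and *Map2k3* had the most counts over both libraries together, and all 3 lay within 2-fold. Besides *Map2k6*, 1 gene of the cascade was over 2-fold higher in chondrocytes. This was *Map3k5*, an upstream stress-activated kinase with 485 counts against 98, at 5.08-fold (interval 4.08 to 6.38). The genes over 2-fold higher in dermal fibroblasts were 3, the p38 isoform genes *Mapk11* (63 and 197 counts, 3.04-fold, interval 2.28 to 4.11) and *Mapk12* (62 and 216 counts, 3.39-fold, interval 2.55 to 4.57) and the downstream kinase gene *Mapkapk3* (135 and 341 counts, 2.46-fold, interval 2.01 to 3.02). The shares of the cascade over 2-fold, 14.3% toward chondrocytes and 21.4% toward dermal fibroblasts, stand beside 12.1% and 15.8% of all genes compared. With total counts, the count toward chondrocytes was 1.

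*Kcnj16* and *Kcnj2* encode inwardly rectifying potassium channel subunits and lie on the plus strand, 38.2 kb apart. *Kcnj2*, whose product sets the resting potential of muscle and other excitable cells, is the channel gene nearer to *Sox9* (chr11:111066164-111076825), with 1705 kb between them. *Kcnj16* (chr11:110968033-111027968), known from kidney and brain, had 0 counts in both libraries. A count of 0 allows up to 3 counts, or 0.167 CPM in chondrocytes and 0.163 in dermal fibroblasts, and the gene was not detectable at this depth. *Kcnj2* had 25 counts in chondrocytes against 40 in dermal fibroblasts, or 1.39 and 2.17 CPM. The dermal fibroblast library had the higher value, by 1.56-fold, but the interval from 0.922 to 2.68 included 1. Under the 6 scalings the difference ran from 1.43-fold to 1.71-fold, and with total counts its interval (1.01 to 2.94) did not include 1. In the chondrocyte library, where *Sox9* was high, its per-length level was 266 times that of *Kcnj2*, and in dermal fibroblasts it was 11.3 times that of *Kcnj2*.

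Inward rectifier channel genes as a family were sparse in both libraries. Of 15 genes, 3 were at 0 in both libraries and 9 could be compared, and the family summed to 6.14 CPM in chondrocytes and 13.4 in dermal fibroblasts. The median log2 fold of the 9 was -0.85, with 2 genes over 2-fold higher in chondrocytes and 4 over 2-fold higher in dermal fibroblasts. These were 22.2% and 44.4% of the 9, against 12.1% and 15.8% of all genes compared. With a floor of 10 counts the median was -0.34 and the counts were 1 and 3. *Kcnj15* had the most counts over both libraries together, 13 in chondrocytes against 86 in dermal fibroblasts, and was 6.44-fold higher in the latter (interval 3.57 to 12.6). *Kcnj8*, the pore subunit of vascular ATP-sensitive channels, had 3 and 27 counts, a ratio of 8.76 in the same direction (interval 2.70 to 45.1). *Kcnj4* had 2 and 46 counts, a ratio of 22.4 (interval 5.86 to 190). *Kcnj12*, which encodes a close relative of the *Kcnj2* product, was higher in the other library, with 41 counts in chondrocytes against 12 and a 3.51-fold difference (interval 1.81 to 7.33). *Kcnj10*, whose product pairs with that of *Kcnj16* and which was picked for this reason after its counts were seen, had 2 and 5 counts.

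*BC006965* is a long noncoding RNA gene on the minus strand (chr11:112663927-112711356 in RefSeq) and the flanking gene nearest to *Sox9*, which starts 70.9 kb away on the plus strand. It had 10 counts in chondrocytes, or 0.558 CPM, and 0 in dermal fibroblasts. Reads were thus found in the chondrocyte library alone, and the gene was at least 3.42-fold higher there against the floor of 3 counts, a bound that leaves out the counting error of the 10 counts. The interval, which includes that error, began at 2.30 and had no upper end. The ratio was 1.03 with a floor of 10 counts, 10.3 with a floor of 1 count and 11.3 with a pseudocount of 1, so its size rests on how very few reads were treated. *Sox9* was 704 times higher per length in chondrocytes, with exon lengths of GENCODE vM1. The extent of the gene differs between annotations: in GENCODE vM1 on NCBIM37 it covers 118 kb instead of the 47.4 kb of RefSeq. The nearer edge of that span lies 248 bases from the start of *Sox9*. Which model was used for counting, and whether strand was used, is not stated, so reads of *BC006965* cannot be told apart from other reads of this interval.

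Between *Kcnj2* and *BC006965* lay 1587 kb without a row of the table that matched a RefSeq gene. Downstream, 457 kb lay between the end of *Sox9* and the nearer end of *Slc39a11*, and the 4 other matched rows inside the whole region all lay in this gap. Of these, *Gm11681*, *1700012H19Rik* and *4732490B19Rik* had 0 counts in both libraries. The other was the long noncoding RNA gene *2610035D17Rik* (chr11:113043906-113201838, minus strand), with 100 counts in chondrocytes and 16 in dermal fibroblasts. It was 6.42-fold higher in chondrocytes (interval 3.77 to 11.7), and these 4 rows are named here after their counts were seen.

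*Slc39a11* encodes a zinc transporter of the ZIP family and is a long gene on the minus strand (chr11:113244851-113650200). It had 909 counts in chondrocytes against 423 in dermal fibroblasts, or 50.7 and 23.0 CPM. The chondrocyte library was the higher one, by 2.21-fold with an interval from 1.96 to 2.48, and the fold stayed between 2.01 and 2.40 under the 6 scalings tried. It was the only abundant flanking gene of the 3 with a fold over 2. The ZIP family had 14 genes in the table, of which 13 were compared. Their median log2 fold was -0.08, or 0.04 with scaling by *Actb*, with 3 genes over 2-fold higher in chondrocytes and 2 in dermal fibroblasts. These were 23.1% and 15.4% of the genes compared, against 12.1% and 15.8% over the whole table, and a floor of 10 counts left 2 and 1. *Slc39a7*, which releases zinc from the endoplasmic reticulum, had the most counts over both libraries together, 7338 and 6086. It was followed by *Slc39a1* with 2560 and 4614 counts, and both were within 2-fold. *Slc39a14*, a transporter of zinc, iron and manganese, had 3969 counts in chondrocytes against 1553 in dermal fibroblasts and was 2.62-fold higher in chondrocytes (interval 2.47 to 2.79). In the other direction, *Slc39a8* had 38 and 174 counts and was higher in dermal fibroblasts by 4.46-fold (interval 3.12 to 6.51). *Slc39a2* had 1 and 14 counts, a ratio of 13.6 toward dermal fibroblasts with an interval from 2.07 to 576. Per length, *Slc39a11* (15.1 and 6.84) stood below *Slc39a14* (21.0 and 7.99) in both libraries.

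*Sstr2* encodes a G protein-coupled receptor for somatostatin and cortistatin. The gene (chr11:113619327-113626028, plus strand) lies wholly inside the span of *Slc39a11* on the opposite strand, and the 2 genes share no exon bases in GENCODE vM1. It had 61 counts in chondrocytes against 17 in dermal fibroblasts, or 3.40 and 0.923 CPM. The chondrocyte library was higher by 3.69-fold (interval 2.12 to 6.73), the largest fold among the flanking genes with over 10 counts in both libraries, and the fold ran from 3.35 to 4.01 under the 6 scalings. With total counts its interval began at 1.93, under 2-fold. Without a stated strand setting, reads of unspliced *Slc39a11* RNA over the exons of *Sstr2* cannot be told apart from reads of *Sstr2*. The rest of the somatostatin system was near the detection limit, and 3 of 7 genes were compared. The peptide gene *Sst* and the receptor gene *Sstr3* were at 0 in both libraries, and *Sstr4* and *Sstr5* had 0 counts in chondrocytes and 1 each in dermal fibroblasts. *Sstr1* had 7 and 3 counts (ratio 2.40, interval 0.547 to 14.4), and the peptide gene *Cort* had 5 and 4 counts (ratio 1.28, interval 0.276 to 6.47). *Sstr2* was thus the one gene of this list whose interval did not include 1, and the median log2 fold of the 3 compared was 1.26, or 0.04 with a floor of 10 counts.

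*Cog1* and *Fam104a* differed least of the 7 genes under each of the 6 scalings. *Cog1* encodes a subunit of the complex that tethers vesicles at the Golgi apparatus, and *Fam104a* encodes a cofactor of the ATPase VCP. *Cog1* (chr11:113649178-113669331, plus strand) had 727 counts in chondrocytes against 796 in dermal fibroblasts, or 40.6 and 43.2 CPM. *Fam104a* (chr11:113661319-113684189, minus strand) had 814 and 881 counts, or 45.4 and 47.9 CPM. The ratio of chondrocytes to dermal fibroblasts was 0.938 for *Cog1* (interval 0.847 to 1.04) and 0.949 for *Fam104a* (interval 0.862 to 1.05). Both intervals included 1, and scaling by *Actb* turned the ratios to 1.02 and 1.03. With total counts the ratios were 0.854 (interval 0.771 to 0.945) and 0.864 (interval 0.784 to 0.951), and neither interval included 1. The ends of these genes overlap on opposite strands and share 1116 exon bases, which are 22.3% of the exon length of *Cog1* and 38.6% of that of *Fam104a*, so part of their reads may be split or dropped in counting. The RefSeq spans of *Cog1* and *Slc39a11* also overlap at their 5′ ends, over 1.02 kb on opposite strands. The annotated starts used below for promoters lie inside these spans, which makes the overlap from those starts shorter. The intervals of this pair did not meet, at 0.847 to 1.04 for *Cog1* and 1.96 to 2.48 for *Slc39a11*.

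Genes for partners of both products lay within 2-fold. Of all genes compared, 12.1% were over 2-fold higher in chondrocytes and 15.8% in dermal fibroblasts. The intervals of 4 of the 8 COG genes and of 6 of the 10 genes on the VCP list did not include 1. This was the case for 66.9% of all genes compared. For the 8 subunit genes of the COG complex, the ratios of chondrocytes to dermal fibroblasts ran from 0.938 for *Cog1* to 1.32 for *Cog8*. Those with the most counts over both libraries together were *Cog4* (1047 and 1096 counts), *Cog3* (941 and 867 counts) and *Cog2* (780 and 761 counts). The median log2 fold was 0.12, or -0.02 with total counts. The 10 genes of the VCP list had a median log2 fold of 0.08, or -0.05 with total counts. *Vcp* itself had 11151 counts in chondrocytes against 10981 in dermal fibroblasts. Over both libraries together, its cofactors *Nploc4* (2310 and 1826 counts) and *Nsfl1c* (2258 and 1606 counts) followed, at 1.30-fold and 1.44-fold higher in chondrocytes.

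Beyond the 8 genes, the 10 nearest rows on each side that matched a RefSeq gene gave the wider neighborhood. Of these 20 genes 16 were compared, of which 3 were over 2-fold higher in chondrocytes, 3 over 2-fold higher in dermal fibroblasts and 10 within 2-fold. The share was 18.8% in each direction, against 12.1% and 15.8% of all genes compared. Upstream of *Map2k6*, the lipid transporter genes of the *Abca8* cluster went in both directions. *Abca8b* (238 and 104 counts, 2.35-fold, interval 1.86 to 2.99) and *Abca8a* (215 and 109 counts, 2.03-fold, interval 1.60 to 2.58) were higher in chondrocytes. Under the other scalings, which were tried for these 20 genes after the data were seen, *Abca8a* was under 2-fold with total counts (1.84) and with median-of-ratios factors. *Abca9* (265 and 572 counts, 2.10-fold, interval 1.81 to 2.44) and *Abca6* (7 and 33 counts, 4.59-fold, interval 2.0 to 12.3) were higher in dermal fibroblasts, with *Abca9* within 2-fold under *Actb* scaling. *Abca5*, next to *Map2k6*, had 664 and 799 counts. Farther out, *Wipi1* (988 and 1533 counts) and *Prkar1a* (5478 and 6040 counts) were within 2-fold as well. *Fam20a* (chr11:109669746-109723163), known for its role in enamel formation, had 54 counts in chondrocytes against 580 in dermal fibroblasts and was 10.5-fold lower in chondrocytes (interval 7.90 to 14.1). Downstream of *Fam104a*, 7 of the 8 genes compared lay within 2-fold. They were *Rpl38* (4627 and 3817 counts), *Cdc42ep4* (834 and 927 counts), *Ttyh2* (678 and 991 counts), *D11Wsu47e* (160 and 251 counts), *Cpsf4l* (6 and 11 counts), *Dnaic2* (7 and 4 counts) and *Kif19a* (5 and 4 counts). The exception was *Sdk2* (chr11:113776374-114067029, minus strand), which encodes a cell adhesion protein known from retinal synapses. It had 3195 counts in chondrocytes against 112 in dermal fibroblasts and was 29.3-fold higher in chondrocytes (interval 24.3 to 35.7). *Slc39a11*, *Sstr2*, *Cog1* and *Fam104a* lie between *Sox9* and *Sdk2*. Of the 4 rows not compared, *1700023C21Rik*, *1700092K14Rik* and *4932435O22Rik* were at 0 in both libraries, and *1700012B07Rik* had 1 count, in dermal fibroblasts.

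Promoter sequences were taken from RefSeq on GRCm38.p6 and matched all 8 genes, with 15 annotated starts. The 250 bases before the start are shown for the neighboring channel genes, of which 1 was detected and 1 was not, and for the 2 genes whose whole interval lay above 2-fold with TMM factors. Each is written 5′ to 3′ on the strand of its gene, with CpG dinucleotides in capitals. The windows are chr11:110967783-110968032 for the outermost start of *Kcnj16* (plus strand), chr11:111065914-111066163 for *Kcnj2* (plus strand), chr11:112711357-112711606 for *BC006965* (minus strand) and chr11:113619077-113619326 for *Sstr2* (plus strand, inside the span of *Slc39a11*).
Kcnj16: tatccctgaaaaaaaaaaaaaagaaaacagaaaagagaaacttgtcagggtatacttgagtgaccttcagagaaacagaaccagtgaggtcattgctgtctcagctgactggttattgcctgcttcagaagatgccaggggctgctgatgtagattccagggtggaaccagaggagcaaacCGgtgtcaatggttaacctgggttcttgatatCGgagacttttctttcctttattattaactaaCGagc
Kcnj2: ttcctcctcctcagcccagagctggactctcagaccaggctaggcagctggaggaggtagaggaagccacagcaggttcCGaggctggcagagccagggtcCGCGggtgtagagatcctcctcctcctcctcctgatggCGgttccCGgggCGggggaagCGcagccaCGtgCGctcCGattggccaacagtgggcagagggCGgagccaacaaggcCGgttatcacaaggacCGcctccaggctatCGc
BC006965: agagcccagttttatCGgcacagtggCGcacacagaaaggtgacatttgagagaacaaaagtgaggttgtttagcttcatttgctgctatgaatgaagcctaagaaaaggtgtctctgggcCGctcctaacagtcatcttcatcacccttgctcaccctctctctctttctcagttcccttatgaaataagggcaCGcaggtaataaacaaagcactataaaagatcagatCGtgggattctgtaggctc
Sstr2: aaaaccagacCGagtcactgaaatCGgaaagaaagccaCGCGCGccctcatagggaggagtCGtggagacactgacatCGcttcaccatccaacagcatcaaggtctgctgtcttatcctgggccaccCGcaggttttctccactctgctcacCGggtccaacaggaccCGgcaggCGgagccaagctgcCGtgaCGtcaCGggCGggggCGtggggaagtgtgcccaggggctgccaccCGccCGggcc
The *Sstr2* window held 18 CpGs and the *Kcnj2* window 14, while those of *BC006965* and *Kcnj16* held 5 and 3. The median over the 32851 such windows of 27025 genes was 6, with quartiles at 2 and 16. Of the 3 abundant genes, *Fam104a* had 16 and 37 CpGs before its annotated starts, *Cog1* had 13, and *Slc39a11* had 8 and 7. Short motifs were searched on both strands, the TATA box TATAAA, the CCAAT box CCAAT, the core TAATCC bound by PITX factors and the core ACAATG bound by SOX factors. CCAAT and ACAATG share the letters CAAT but differ in the base before them. TATAAA was in 12.4% of all windows and in 3 of the 15 windows here, among them that of *BC006965*. CCAAT was in 33.8% of all windows and in 3 of the 15, among them that of *Kcnj2*. TAATCC was in 6.25% of all windows and 0 of the 15, and ACAATG was in 10.7% and in 1 of the 15, at an inner start of *Map2k6*. None of these motifs was in the windows shown for *Kcnj16* and *Sstr2*. A match is a description, and none of these windows was tested for activity here.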

How the data were processed

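Total RNA from 1 sample of chondrocytes and 1 of dermal fibroblasts was made into stranded mRNA libraries and read as 75 bp single ends. Per the labels, CASAVA 1.8.2, TopHat2 2.0.13, Bowtie2 2.2.3 and SAMtools 0.1.19 were used with mm10. The table deposited by the authors holds unscaled whole counts of reads for each gene symbol. The counting program, its annotation and its strand setting are not given in the sources used here. In 27 rows the symbol had become a date, and these rows stayed in the totals.

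From these counts, TMM factors (0.954 for chondrocytes and 1.05 for dermal fibroblasts) were computed with edgeR 4.0.16 in R 4.3.3, and folds, CPM and intervals in Python 3.11.15 with pandas 2.3.3, scipy 1.17.1 and numpy 2.4.6. Figures were drawn with matplotlib 3.10.9. In chondrocytes the 10 most abundant genes held 18.6% of all counts, and in dermal fibroblasts 9.09%. Of 24421 rows, 6703 were 0 in both libraries and 15616 had over 3 counts in at least 1 library and were compared. Folds have 95% Clopper-Pearson intervals of the share of 2 counts, computed without the floor, and levels above 0 have exact Poisson intervals. For a count of 0 the one-sided limit of 3 counts is given. For genes with 1 to 3 counts in a library the ratio of the scaled counts is printed, while lists were counted with counts under 3 set to 3. No p-value was computed. The calculations were tested on simulated counts.

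Exon lengths are the merged exons of GENCODE vM1 (NCBIM37), where *Fam104a* is named D11Wsu99e. Positions and sequences are from RefSeq GRCm38.p6, the assembly mm10 is based on, and no position was converted. Named were the 8 genes, *Sox9* and the 10 nearest rows on each side that matched a RefSeq gene. Of each gene list, the 3 genes with the most counts summed over both libraries were named, and those whose whole interval lay beyond 2-fold. Also named were *Cog8* as the end of the COG range, the rest of the somatostatin list, *Kcnj10* and the rows between *Sox9* and *Slc39a11*. Of each marker list the most abundant gene and the markers at 0 were named. The members and lists were chosen with earlier results of these data known. Alternatives were other scalings (total counts, DESeq2 1.42.0 median-of-ratios factors, upper quartile, totals without the 10 most abundant genes, *Actb*), a fold over 4, a floor of 1 or 10 counts, a pseudocount of 1, whole intervals beyond 2-fold, and other filters. The intervals and their counts under the other scalings, the median of the 7 genes under all settings, and the intervals for ratios of levels within a library were added after the data were seen.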

Additional observations from a re-analysis of the deposited data

How the results depend on the processing

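The number of flanking genes over 2-fold higher in chondrocytes was 3 with total counts, where *Map2k6* fell to 1.91-fold, and 3 with a floor of 10 counts, where *BC006965* fell to 1.03 (10.3 with a floor of 1 count and 11.3 with the pseudocount). It was 4 under the other scalings, the floor of 1 count, the pseudocount and both filters, 2 for whole intervals beyond 2-fold and 0 for a fold over 4. No flanking gene was over 2-fold higher in dermal fibroblasts under any of these settings. Over all genes, 1887 passed 2-fold toward chondrocytes and 2468 toward dermal fibroblasts. A fold over 4 left 713 and 929 of them, and whole intervals beyond 2-fold left 1041 and 1546, as stricter thresholds must leave fewer. Total counts shifted all log2 folds by -0.14 and *Actb* by 0.12 relative to TMM. All 40 folds of the 7 genes and *Sox9* under the other scalings lay inside the counting interval of the TMM value, but with total counts the intervals of *Kcnj2*, *Cog1* and *Fam104a* no longer included 1. The floors cannot change genes with at least 10 counts in both libraries, so of the 7 they bear on *BC006965* alone. Of 120 list medians 11 left the range set by their genes' intervals, and of 240 list counts 6 changed by over 1.5 times, 5 of them with the floor of 10 counts. Depth limits *Kcnj16* and *BC006965* most, at 0 and 10 counts. No paired analysis was possible because there was 1 library for each cell type.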
